A study of Rattus norvegicus with 10 samples.

Results

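The collagen and basement membrane genes of rat round spermatid preparations, 63 of the 32545 genes in the files, were chosen by name among the protein-coding rows. They comprised 43 collagen chain rows, 10 laminin chains, the proteins Dcn, Lum, Bgn, Sparc, Fn1, Nid1, Nid2, Mgp and Fbln5, and 1 row that only shares the spelling. That row was Col4a3bp, which RefSeq lists as a synonym of Cert1, a carrier of ceramide between membranes and no matrix protein. Col23a1 stood in 2 rows at different places on chromosome 10. Of the 63 members, 29 had a mean of at least 1 FPKM over the 10 libraries and entered the test. FPKM is the number of fragments per kilobase of gene, scaled to the size of the library, so levels can be set side by side between genes. Col4a3, Col21a1 and Lama3 were not analysed here, and Col6a3, listed as a processed transcript, is no member.

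The libraries came from wild-type Brown Norway rats of 18 to 20 months (aged, n = 5) and of 4 to 6 months (young, n = 5). All were labelled as primary round spermatids, which are haploid cells that have completed meiosis, and were obtained from testis by STA-PUT, a separation of cells by sedimentation in a gradient. The labels name no treatment and do not say whether each library is 1 animal, so a p-value here reflects the variation among these libraries, some of which may be technical. Recovered fragments numbered 15992576 to 18203223 in aged and 14488222 to 17401744 in young libraries. Markers of round spermatids, among them the protamines Prm1 and Prm2, summed to 14810 to 20360 FPKM in aged and 15110 to 25090 FPKM in young libraries.

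Collagens are secreted proteins whose alpha chains wind into a helix. Fibrillar collagens bear tension, collagen IV and laminins each polymerise into the sheets of basement membranes, nidogens bridge those sheets, and fibril-associated (FACIT) collagens decorate fibrils. In the testis a basement membrane surrounds each seminiferous tubule. It is laid down by Sertoli cells and by peritubular myoid cells, the contractile cells of the tubule wall, while round spermatids lie closer to the lumen and do not rest on it. In bulk RNA, fewer cells of a type and less RNA per cell cannot be told apart.

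Promoter windows, 250 bases before to 50 bases after a gene's start, were taken from RefSeq on the GRCr8 assembly. All 63 members matched 62 distinct RefSeq genes, and 46 of these had a window. Col4a1 and Col4a2 are shown because their products assemble into the same collagen IV helix and their levels differed between libraries. They start 77 bases apart on opposite strands of chromosome 16, at chr16:84885347-84885646 on the plus strand and chr16:84885471-84885770 on the minus strand, and their windows share 176 bases that are identical once reversed. Capitals mark CCAAT and the GC box GGGCGG, either as spelled or in the opposite orientation.
Col4a1: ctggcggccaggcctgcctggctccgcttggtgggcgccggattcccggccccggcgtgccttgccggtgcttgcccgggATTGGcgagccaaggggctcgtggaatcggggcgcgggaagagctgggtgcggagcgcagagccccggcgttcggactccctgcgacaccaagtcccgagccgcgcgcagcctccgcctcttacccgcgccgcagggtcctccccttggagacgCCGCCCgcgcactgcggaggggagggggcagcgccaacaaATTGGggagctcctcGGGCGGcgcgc
Col4a2: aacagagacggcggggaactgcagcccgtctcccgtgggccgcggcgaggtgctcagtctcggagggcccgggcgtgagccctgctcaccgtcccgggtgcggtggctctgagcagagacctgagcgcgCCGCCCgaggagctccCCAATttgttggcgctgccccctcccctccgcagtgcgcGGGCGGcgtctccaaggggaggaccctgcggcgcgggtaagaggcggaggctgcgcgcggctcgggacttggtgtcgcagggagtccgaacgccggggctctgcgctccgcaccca
Further windows are shown for Col16a1, Lamb3 and Sparc, whereas Mgp, Bgn, Lamb2 and Dcn had no window. Col16a1, at chr5:147672846-147673145 on the plus strand, had the highest mean of the collagens. Lamb3, at chr13:107362303-107362602 on the plus strand, held the cAMP response element TGACGTCA, also in capitals. Sparc, at chr10:40038767-40039066 on the minus strand, held none of the motifs searched.
Col16a1: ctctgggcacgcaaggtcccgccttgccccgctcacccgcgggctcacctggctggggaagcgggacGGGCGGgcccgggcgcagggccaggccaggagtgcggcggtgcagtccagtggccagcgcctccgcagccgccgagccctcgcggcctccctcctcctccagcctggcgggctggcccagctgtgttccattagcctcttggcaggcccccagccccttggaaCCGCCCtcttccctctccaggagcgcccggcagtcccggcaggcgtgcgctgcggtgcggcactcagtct
Lamb3: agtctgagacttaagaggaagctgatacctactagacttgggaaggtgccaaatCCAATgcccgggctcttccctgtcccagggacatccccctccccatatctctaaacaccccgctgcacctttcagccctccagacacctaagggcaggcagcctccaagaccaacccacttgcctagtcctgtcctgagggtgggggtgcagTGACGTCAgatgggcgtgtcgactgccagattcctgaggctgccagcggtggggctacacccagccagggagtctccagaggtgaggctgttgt
Sparc: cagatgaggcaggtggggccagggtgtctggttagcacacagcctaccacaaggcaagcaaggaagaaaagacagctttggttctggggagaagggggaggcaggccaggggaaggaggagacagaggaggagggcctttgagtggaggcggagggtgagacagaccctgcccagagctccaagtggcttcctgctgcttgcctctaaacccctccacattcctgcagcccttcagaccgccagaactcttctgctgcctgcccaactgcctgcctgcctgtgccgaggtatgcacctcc

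Motifs were searched on both strands, and none of the 4 spellings contains another. GGGCGG was found in 26 of the 46 member windows, against 34.9% of all 27457 windows, and CCAAT in 17 of 46, against 37.7%. TATAAA was found in 5 member windows, against 14.3% of all windows. TGACGTCA was found in 2, those of Lamb3 and of the fibrillar collagen Col24a1, against 1.91% of all windows. A match describes letters only.

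No member differed between aged and young libraries at an adjusted p under 0.05 (limma on log2(FPKM + 1), Benjamini-Hochberg over 12985 genes), and neither did any other gene (0%). The smallest adjusted p was 0.319 among members and 0.28 among all genes. At an unadjusted p under 0.05, 6 of the 29 tested members stood higher in aged libraries, against 5.54% of all tested genes, and 0 stood lower, against 6.35%. The 6 were Mgp, Bgn, Sparc, Lamb2, Col4a2 and Col4a5. Fitted differences were above 0 for 24 of the 29, against 45.5% of all tested genes, with a median of 0.25 log2 units, against -0.015 over all tested genes. A value after ± is the SD over the 5 libraries of a group for a level and the standard error for a fitted difference. The counts carry a limit, since Dcn, Col4a2, Col6a2, Col4a5, Lama2 and Nid1 averaged under 1 FPKM in young libraries and passed the filter through their aged values.

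The libraries differed within the aged group. Aged replicate 2 was the highest of the 10 libraries for 19 of the 29 tested members, against 12.2% of all tested genes, and it reached 2 times the young mean for 17 of the 29, against 4.41%. The filter limits both counts, because the values of this library entered the filter mean. Both include all 6 members named above that averaged under 1 FPKM in young libraries. Aged replicate 1 was the highest for Col16a1, Col22a1 and Lama1, against 7.13% of all tested genes, and a young library for 4 members, against 51%. Aged replicates 1 and 2 had the highest summed levels of the matrix members, 289 and 391 FPKM. Leaving them out is therefore no independent check, and the 29 members stayed those that passed the filter over all 10 libraries. With aged replicates 1 and 2 left out, 19 of 29 fitted differences were above 0, against 49.4% of all tested genes, and the members' median was 0.06, against -0.00196 over all tested genes. In that fit 5 members stood higher at an unadjusted p under 0.05, against 3.69%, and 0 stood lower, against 3.8%. Those 5 were Bgn, Col4a2, Lamb2, Mgp and Sparc.

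**Figure D1:**
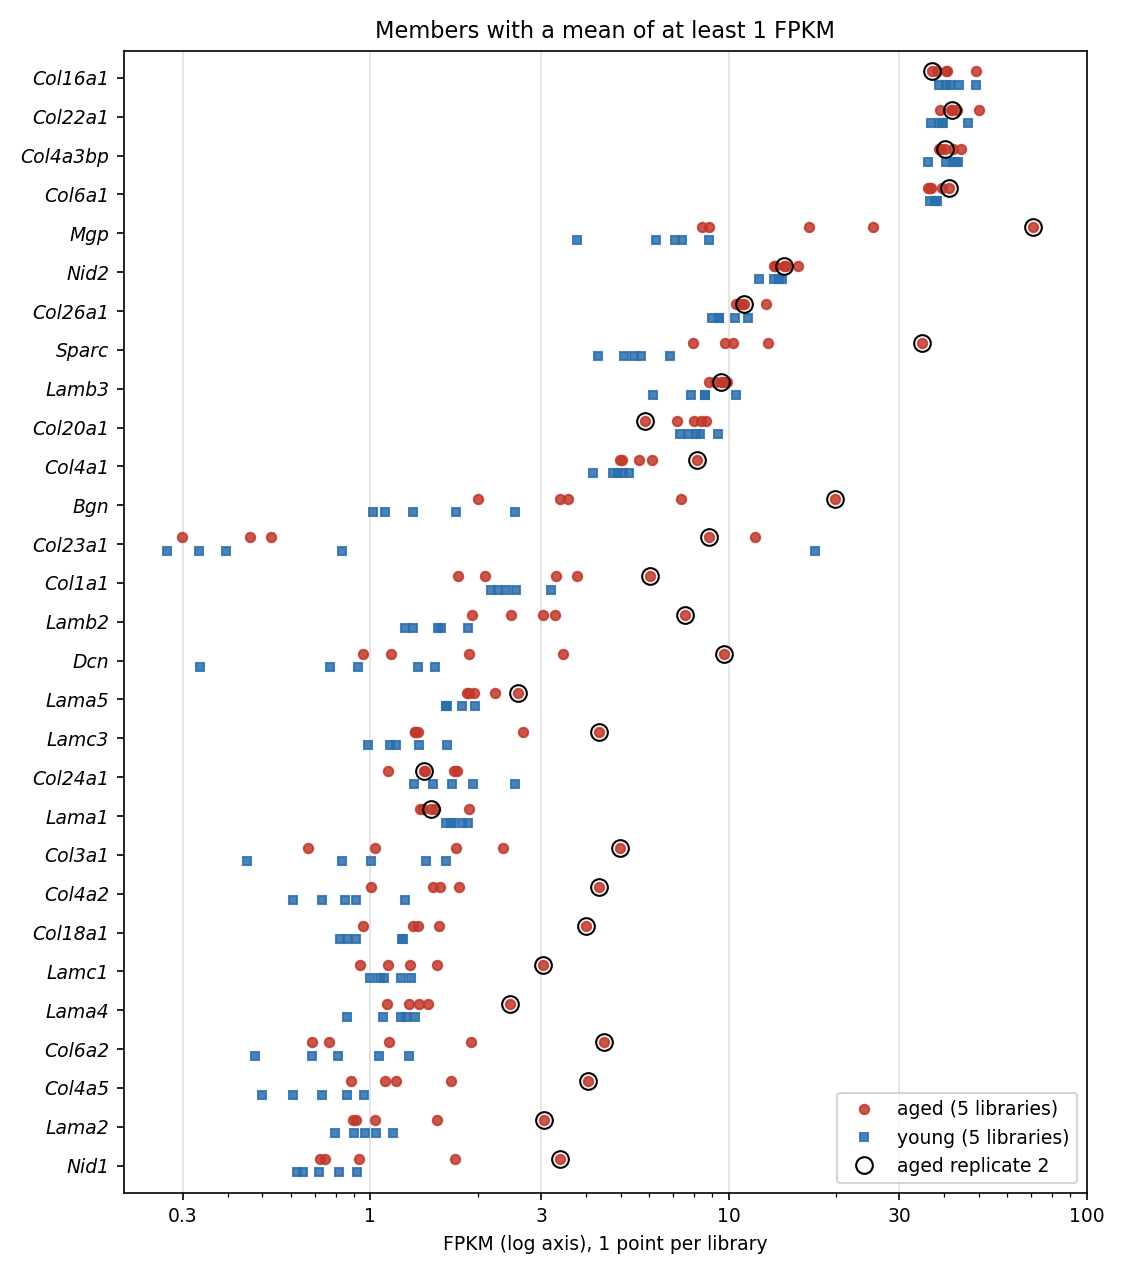
FPKM of the 29 tested members on a log axis, 1 point per library, with aged libraries as circles and young libraries as squares, and aged replicate 2 ringed. Genes run down the page by mean level. Col16a1, Col22a1 and Col6a1 sit near 40 FPKM in both groups, whereas the ringed point is the highest for 19 members.

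The collagens with the highest means belonged to the FACIT and collagen VI families and lay at like levels in both groups. Col16a1, a FACIT chain on chromosome 5, ranked 2603 among the 32545 genes. Its levels were 49.2, 37.1, 40.6, 40.4 and 38.1 FPKM in aged libraries, against 44.1, 38.7, 41.5, 40.5 and 49.0 FPKM in young libraries. The groups overlapped over nearly their whole range, and the fitted difference was -0.06 ± 0.08 log2 units (SE; adjusted p = 0.773, limma). Col22a1, a FACIT chain known from tissue junctions such as that of muscle and tendon, had 49.9, 42.1, 43.5, 38.9 and 41.7 FPKM in aged libraries, against 36.8, 38.6, 39.7, 39.5 and 46.5 FPKM in young libraries. Its groups overlapped as well, with aged replicate 1 highest, and the fitted difference was 0.10 ± 0.07 (adjusted p = 0.571, limma).

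Col6a1, a chain of the beaded filaments of collagen VI, was the steadiest member. It had 36.0, 41.3, 36.6, 36.8 and 39.4 FPKM in aged libraries, against 37.9, 37.6, 36.5, 37.6 and 38.2 FPKM in young libraries. The groups overlapped, and its coefficient of variation over the 10 libraries was 4.18%, against a median of 12.2% over all tested genes. Col20a1, another FACIT chain, had 8.65, 5.83, 7.16, 8.37 and 8.03 FPKM in aged libraries, against 8.12, 7.75, 8.35, 7.34 and 9.33 FPKM in young libraries. Aged replicate 2, which was highest for most members, was lowest here, and the fitted difference was -0.10 ± 0.10 (adjusted p = 0.671, limma).

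Nid2, a nidogen, had 13.5, 14.2, 15.6, 13.4 and 14.5 FPKM in aged libraries, against 12.2, 13.8, 13.8, 13.4 and 14.1 FPKM in young libraries. Its groups overlapped and its coefficient of variation was 6.38%. Col26a1, a collagen first described in mouse testis and ovary, had 10.5, 11.1, 10.9, 10.8 and 12.8 FPKM in aged libraries, against 8.99, 11.4, 10.5, 9.43 and 9.42 FPKM in young libraries. Aged replicates 1 to 4 lay within the young range and replicate 5 above it, and the fitted difference of 0.16 ± 0.07 did not pass (adjusted p = 0.424, limma). Lamb3, a laminin beta chain of epithelial adhesion, had 9.16, 9.53, 9.68, 8.80 and 9.93 FPKM in aged libraries, against 6.15, 8.61, 7.86, 8.60 and 10.5 FPKM in young libraries. The highest value was young and the aged values spanned a narrow range within the young one (difference 0.17 ± 0.11, adjusted p = 0.503, limma). Col4a3bp, the row without a matrix role, had 42.3, 40.2, 44.7, 39.3 and 38.8 FPKM in aged libraries, against 36.0, 42.3, 40.5, 43.8 and 43.1 FPKM in young libraries, and its groups overlapped throughout.

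Among the basement membrane chains, the partners of collagen IV differed in level and in spread. Col4a1 had 6.12, 8.15, 5.03, 5.62 and 4.98 FPKM in aged libraries, against 4.19, 4.92, 5.28, 4.75 and 5.08 FPKM in young libraries. Aged replicates 1, 2 and 4 lay above every young library, and replicates 3 and 5 lay within the young range (difference 0.24 ± 0.11, adjusted p = 0.438, limma). Col4a2 had 1.77, 4.34, 1.004, 1.57 and 1.49 FPKM in aged libraries, against 0.732, 0.610, 0.915, 0.849 and 1.25 FPKM in young libraries. Of the aged libraries, replicate 3 alone lay below the highest young library, and the fitted difference was 0.62 ± 0.22 (adjusted p = 0.363, limma), or 0.33 without aged replicates 1 and 2 (adjusted p = 0.659, limma).

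The ratio of Col4a1 to Col4a2 was 1.88 to 5.01 in aged libraries and 4.08 to 8.07 in young libraries, lowest in aged replicate 2. The files place Col4a2 and Col4a1 on chromosome 16 with 83.6 kilobases between them, in a build for which no source used here gives a name, so their gene models differ from the RefSeq pair shown above. Col4a5, the X-linked collagen IV chain, had 1.68, 4.06, 0.881, 1.10 and 1.18 FPKM in aged libraries, against 0.731, 0.5, 0.962, 0.608 and 0.860 FPKM in young libraries. The groups overlapped by aged replicate 3, and the fitted difference was 0.59 ± 0.24 (adjusted p = 0.391, limma). It was 0.25 without aged replicates 1 and 2 (adjusted p = 0.67, limma). Col18a1, the basement membrane collagen that yields endostatin, averaged 1.84 ± 1.23 FPKM in aged and 1.01 ± 0.202 FPKM in young libraries (SD, n = 5 each), with aged replicate 2 at 4.01 FPKM (adjusted p = 0.457, limma).

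**Figure D2:**
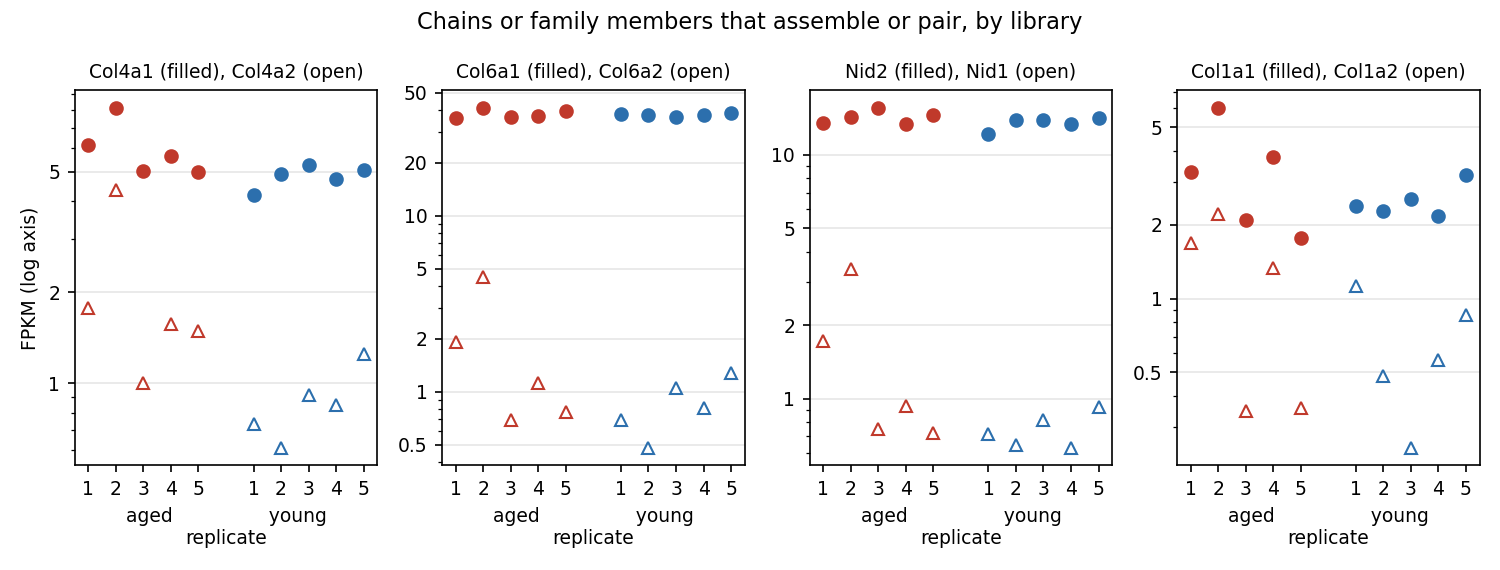
FPKM on a log axis of 4 pairs of related chains, 1 point per library by group and replicate, with aged libraries in red left of young libraries in blue, and the gene with the higher level filled. Col6a1 and Nid2 run flat across the libraries, whereas Col6a2, Nid1, Col4a2 and Col1a2 are highest in aged replicate 2.

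The chains of collagen VI showed the same kind of contrast. Col6a2 had 1.91, 4.49, 0.687, 1.13 and 0.765 FPKM in aged libraries, against 0.689, 0.477, 1.06, 0.813 and 1.28 FPKM in young libraries. Aged replicates 1 and 2 lay above all young libraries and replicates 3 to 5 among them, so that the fitted difference was 0.45 ± 0.29 over all libraries (adjusted p = 0.521, limma) and 0.01 without aged replicates 1 and 2. The ratio of Col6a1 to Col6a2 was 9.2 to 53.3 in aged libraries and 29.8 to 78.9 in young libraries. Col6a3, the chain that joins them in the filament, averaged 1.76 ± 0.83 FPKM in aged and 1.19 ± 0.281 FPKM in young libraries (SD, n = 5 each). Nid1 averaged 1.503 ± 1.13 FPKM in aged and 0.746 ± 0.123 FPKM in young libraries (adjusted p = 0.473, limma), which put the ratio of Nid2 to Nid1 at 4.2 to 20.9 in aged and 15.3 to 21.4 in young libraries.

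Laminin chains were the class with the largest tested share, 8 of 10. Lamb2, the beta chain of many adult basement membranes, had 3.28, 7.58, 1.93, 3.04 and 2.48 FPKM in aged libraries, against 1.32, 1.25, 1.58, 1.55 and 1.88 FPKM in young libraries. Every aged library lay above every young one, as for 1.36% of all tested genes in the aged direction, and the closest values were 1.93 FPKM in an aged and 1.88 FPKM in a young library. The fitted difference was 0.79 ± 0.24 (adjusted p = 0.319, limma), and 0.46 without aged replicates 1 and 2 (adjusted p = 0.526, limma).

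The other laminins were lower or steadier. Lama5, an alpha chain of mature epithelia, averaged 2.10 ± 0.305 FPKM in aged and 1.73 ± 0.147 FPKM in young libraries, and Lamc3, a gamma chain, 2.21 ± 1.33 FPKM in aged and 1.26 ± 0.251 FPKM in young libraries (SD, n = 5 each). Lamc1, the common gamma chain, averaged 1.58 ± 0.838 FPKM in aged and 1.14 ± 0.124 FPKM in young libraries. None of these passed at an unadjusted p under 0.05, and the fitted difference of Lamc1 was -0.01 without aged replicates 1 and 2. Lama1, an alpha chain, averaged 1.53 ± 0.204 FPKM in aged and 1.73 ± 0.104 FPKM in young libraries (difference -0.12, adjusted p = 0.559, limma). Without aged replicates 1 and 2 its 3 aged values, 1.37 to 1.51 FPKM, lay below all young values, as for 2.78% of all tested genes. Lama4 averaged 1.53 ± 0.528 FPKM in aged and 1.15 ± 0.185 FPKM in young libraries, and it overlaps Fam229b, at a mean of 2516 FPKM on the opposite strand. Lama2 averaged 1.49 ± 0.913 FPKM in aged and 0.972 ± 0.136 FPKM in young libraries and overlaps RGD1560695 on the opposite strand. These overlaps are of whole gene spans, and whether exons overlap was not examined. No source used here gives the strand setting of the counting. Whether fragments of the neighbours entered the values of Lama4 and Lama2 was therefore not tested.

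**Figure D3:**
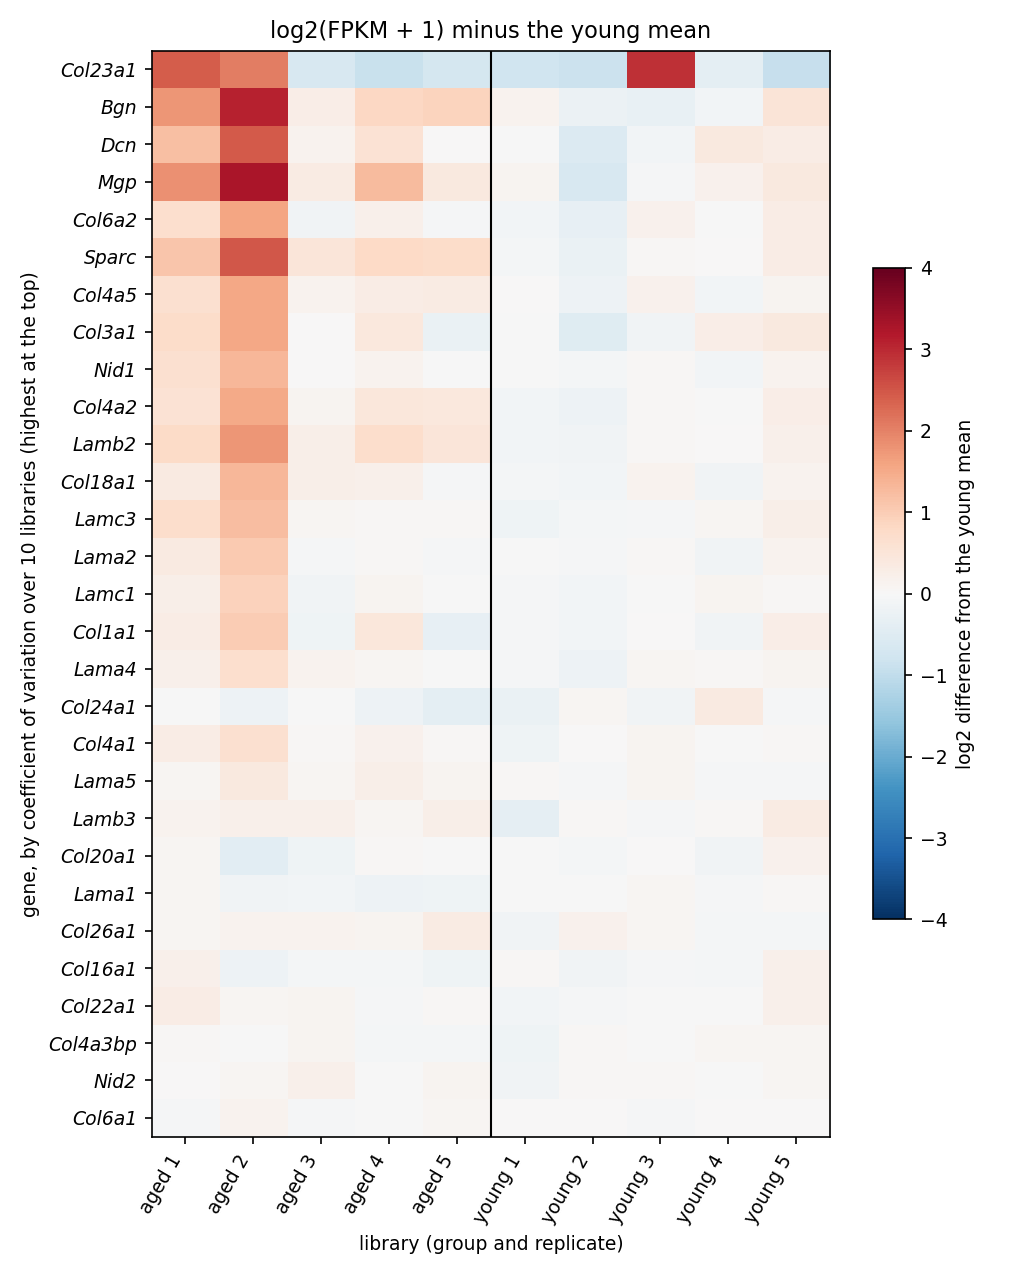
Level of the 29 tested members in each library as log2(FPKM + 1) minus the gene's young mean, with aged libraries left of young libraries and genes ordered by their coefficient of variation. Aged replicate 2 and, more weakly, aged replicate 1 form the red columns, and the rows at the bottom, from Lama1 to Col6a1, stay pale in all 10 libraries.

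The widest spread among the non-collagen members was that of small secreted proteins that bind collagen or mineral. Mgp, an inhibitor of calcification, had 25.3, 70.7, 8.45, 16.8 and 8.82 FPKM in aged libraries, against 7.10, 3.78, 6.28, 7.40 and 8.82 FPKM in young libraries. Aged replicates 1, 2 and 4 stood above the young range, and replicates 3 and 5 lay at its upper end. The fitted difference was 1.41 ± 0.48 log2 units (adjusted p = 0.348, limma) and 0.66 without aged replicates 1 and 2 (adjusted p = 0.658, limma).

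Bgn, a small leucine-rich proteoglycan encoded on chromosome X, had 7.37, 19.8, 1.997, 3.39 and 3.57 FPKM in aged libraries, against 1.73, 1.10, 1.02, 1.32 and 2.54 FPKM in young libraries. Aged replicate 3 alone lay within the young range. Its fitted difference was 1.36 ± 0.44 (adjusted p = 0.327, limma), and 0.66 without aged replicates 1 and 2 (adjusted p = 0.586, limma). Dcn, the related proteoglycan decorin, had 3.44, 9.70, 1.15, 1.89 and 0.957 FPKM in aged libraries, against 0.922, 0.336, 0.772, 1.51 and 1.36 FPKM in young libraries. Its aged replicates 3 and 5 lay within the young range (difference 0.88 ± 0.41, adjusted p = 0.428, limma), and the difference was 0.25 without aged replicates 1 and 2.

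Sparc, a calcium- and collagen-binding protein also called osteonectin, had the smallest p of the members. It had 12.9, 34.8, 7.94, 10.3 and 9.77 FPKM in aged libraries, against 5.11, 4.33, 5.71, 5.46 and 6.85 FPKM in young libraries. All 5 aged values lay above all 5 young values, and Sparc and Lamb2 were the 2 tested members of which this held; for 0 members did all aged values lie below, against 1.24% of all tested genes. The fitted difference was 1.12 ± 0.31 (adjusted p = 0.319, limma), and 0.67 without aged replicates 1 and 2 (adjusted p = 0.335, limma). In aged replicates 3 to 5 Sparc averaged 9.33 FPKM, which is 1.7 times the young mean of 5.49 FPKM, whereas all 5 aged libraries averaged 2.75 times the young mean. In that smaller set of libraries all aged values lay above all young values for 2 members, against 2.65% of all tested genes. These were Sparc and Lamb2, for which this was fixed in advance, since leaving out aged libraries cannot lower the lowest aged value. For these genes it is therefore no second result.

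**Figure D4:**
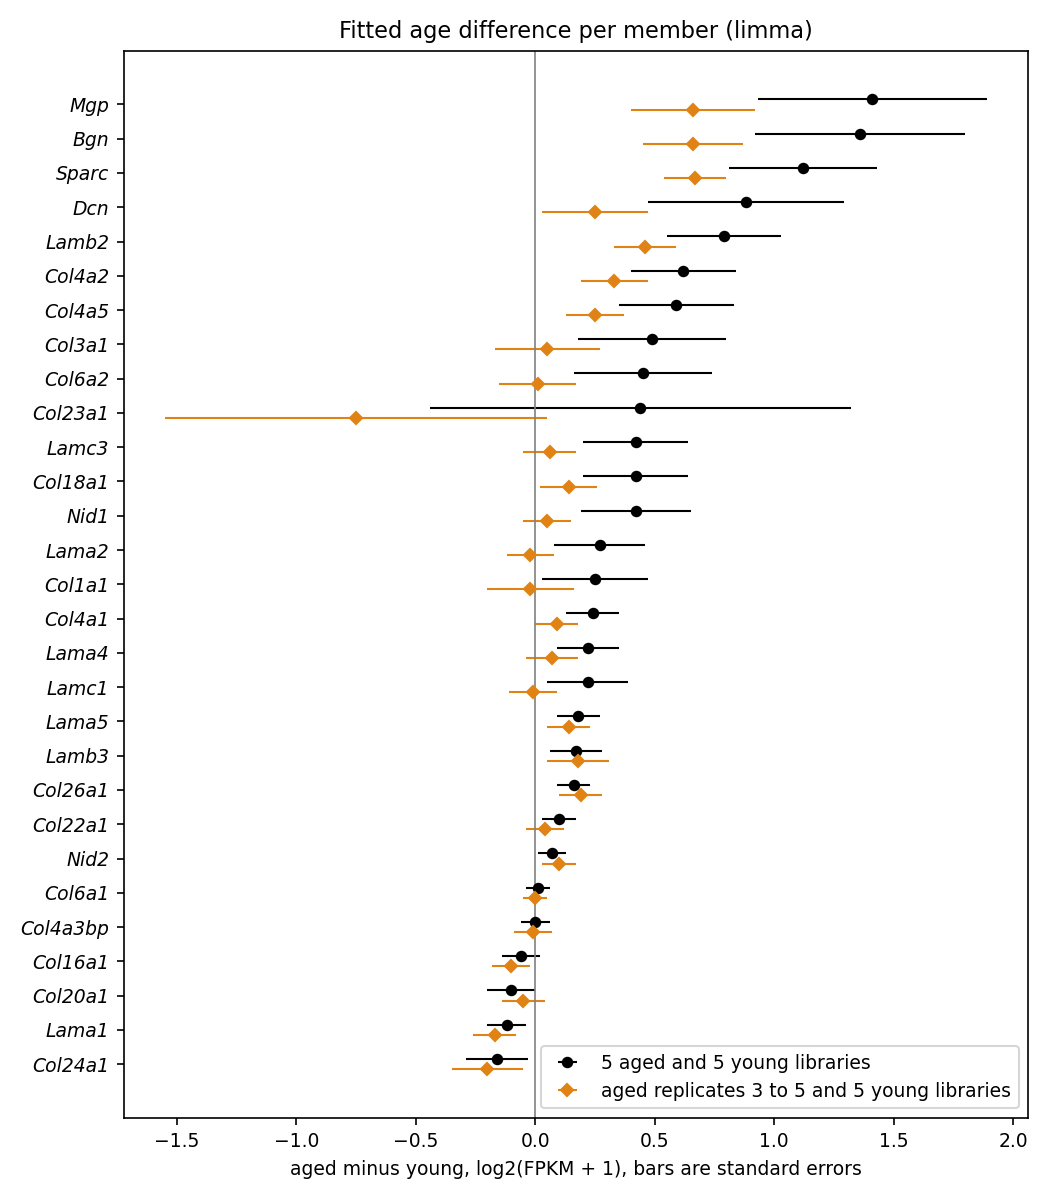
Fitted difference of each tested member, aged minus young, in log2(FPKM + 1) with bars of 1 standard error. Circles use 5 aged and 5 young libraries, and diamonds use aged replicates 3 to 5 and 5 young libraries. The values for Mgp and Bgn are 1.41 and 1.36 with all libraries and 0.66 each without aged replicates 1 and 2.

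The fibrillar collagens, which dominate scar and connective tissue, were low. Col1a1 had 3.29, 6.03, 2.09, 3.78 and 1.76 FPKM in aged libraries, against 2.40, 2.27, 2.55, 2.17 and 3.19 FPKM in young libraries. The groups overlapped, with aged replicate 2 highest and aged replicate 5 lowest, and the fitted difference was 0.25 ± 0.22 (adjusted p = 0.636, limma), or -0.02 without aged replicates 1 and 2. Col1a2, its partner in collagen I, had 1.69, 2.22, 0.348, 1.33 and 0.357 FPKM in aged libraries, against 1.13, 0.483, 0.245, 0.559 and 0.854 FPKM in young libraries. It was not tested because its mean was under 1 FPKM, and its groups overlapped. Col3a1 averaged 2.15 ± 1.70 FPKM in aged and 1.07 ± 0.471 FPKM in young libraries (adjusted p = 0.512, limma), and Col24a1 averaged 1.48 ± 0.256 FPKM in aged and 1.80 ± 0.473 FPKM in young libraries (adjusted p = 0.583, limma).

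A row named Col23a1, after a collagen that spans the plasma membrane, is described because of a pattern noticed after its values were seen. The files give that name to 2 rows with different identifiers, and which of them holds the collagen gene was not settled here. The row at positions 34903343 to 34933539 had 11.8, 8.82, 0.5299, 0.298 and 0.462 FPKM in aged libraries, against 0.396, 0.332, 17.4, 0.836 and 0.271 FPKM in young libraries. Aged replicates 1 and 2 and young replicate 3 stood far above the other 7 libraries, so the split ran within both groups. The counts behind the row were 5 to 304 fragments per library. The second Col23a1 row averaged 0.0346 FPKM in aged and 0.0178 FPKM in young libraries, with at least 1 library listed at 0.

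The 34 members under the filter had means of 0.0176 to 0.971 FPKM, 10 of them at 0.5 FPKM or more and 6 below 0.1 FPKM. The 5 highest were the collagen IV chains Col4a6 and Col4a4, Col1a2, the laminin chain Lamb1 and Col6a6. Col4a6 averaged 1.07 FPKM in aged and 0.869 FPKM in young libraries, Col4a4 averaged 1.29 FPKM in aged and 0.641 FPKM in young libraries, and Lamb1 averaged 1.24 FPKM in aged and 0.483 FPKM in young libraries. Col6a6 averaged 0.629 FPKM in aged and 0.724 FPKM in young libraries. Aged replicate 2 was the highest library for 14 of the 34. The share over all genes under the filter was not computed, so the count is no result about the members. Some of these highest values rest on few fragments, such as 3 for the second row of Col23a1 and 5 for Col17a1. Col27a1, Col8a1, the second row of Col23a1, Col17a1 and Col10a1 were listed at 0 in at least 1 library. In a fit with no filter on low values, 8 of the 63 members stood higher at an unadjusted p under 0.05, against 5.2% of 24839 genes, and 0 stood lower, against 4.38%. Differences were above 0 for 49 of the 63, against 49.7%. Col15a1 and Col26a1 joined the 6 above, at 0.26 ± 0.10 log2 units for Col15a1 (adjusted p = 0.493, limma). Fn1, the matrix protein fibronectin, averaged 0.570 FPKM in aged and 0.306 FPKM in young libraries, and its groups did not overlap, as for 1.3% of genes in that fit.

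Summed over the 62 matrix members, levels were 289, 391, 219, 233 and 222 FPKM in aged libraries, against 203, 198, 225, 207 and 236 FPKM in young libraries. Aged replicates 1 and 2 lay above all others and aged replicates 3 to 5 within the young range. Col16a1, Col22a1 and Col6a1 gave 37.4% to 55.9% of the members' fragments in aged and 55.2% to 58.7% in young libraries. All matrix members together took 0.0944% to 0.144% of the fragments of an aged library and 0.089% to 0.101% of those of a young library. Members at 1 FPKM or more numbered 32, 32, 23, 28 and 21 in aged libraries, against 20, 17, 23, 22 and 25 in young libraries. Over all genes, aged replicates 1 and 2 were highest in this count as well. It was 13116, 13576, 12703, 12913 and 12847 in aged libraries, against 12901, 12732, 12884, 12769 and 12907 in young libraries. Of the 29 tested members, 19 had a coefficient of variation above 20%, against 25% of all tested genes, and 8 were at or under the median of all tested genes, against 50%. Their median over the young libraries alone was 16.4%, against 11.1% over all tested genes.

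**Figure D5:**
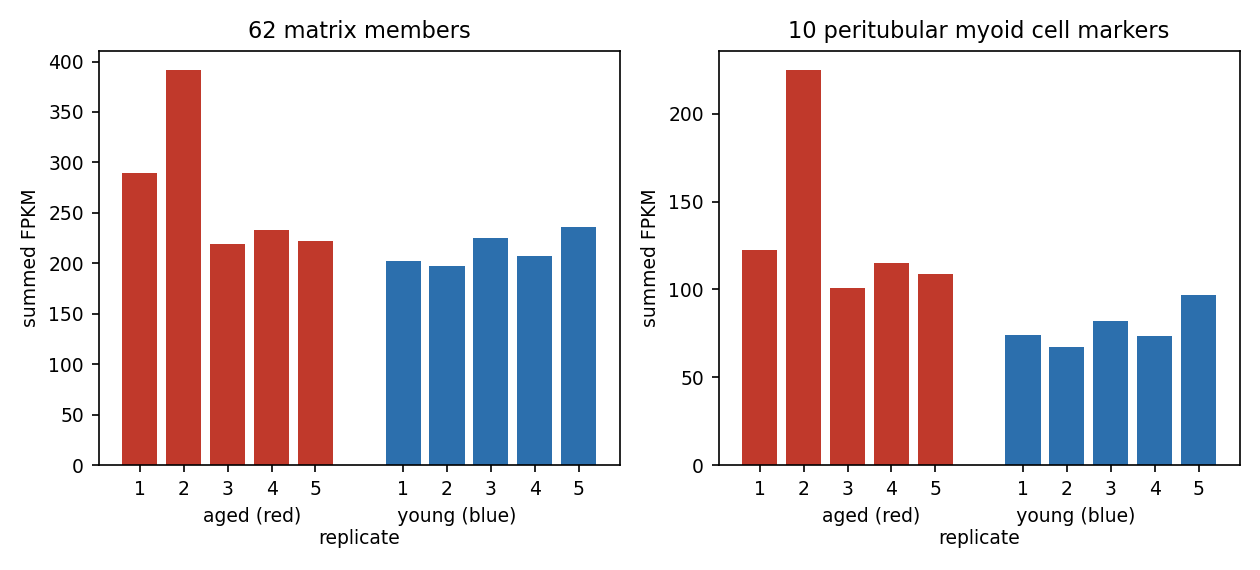
Summed FPKM per library of the 62 matrix members (left) and of 10 markers of peritubular myoid cells (right), with aged libraries in red left of young libraries in blue and axes starting at 0. Both sums are highest in aged replicate 2, and the marker sums of all 5 aged libraries, 101 to 225 FPKM, lie above the young sums of 67.1 to 97.0 FPKM.

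Summed levels of markers of testicular cells other than germ cells stood higher in aged replicates 1 and 2 along with these members. Not every gene of the lists did so. Actg2, Pi16, Adgre1, Tek, Rhox5 and Amh lay within or below the young range in both libraries. The counts of genes higher at an unadjusted p under 0.05 are read against 5.54% of all tested genes, or 3.69% without aged replicates 1 and 2. The 10 peritubular myoid cell markers, among them smooth muscle actin Acta2 and desmin (Des), summed to 101 to 225 FPKM in aged libraries (101 to 115 FPKM in aged replicates 3 to 5) and 67.1 to 97.0 FPKM in young libraries. Of their 9 tested genes, 8 stood higher at that p, with and without aged replicates 1 and 2. Fibroblast markers summed to 18.8 to 54.7 FPKM in aged libraries (18.8 to 22.3 FPKM in aged replicates 3 to 5) and 17.04 to 20.92 FPKM in young libraries, and 0 of 4 tested genes reached that p.

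Leydig cell markers summed to 10.7 to 119 FPKM in aged libraries (10.7 to 16.6 FPKM in aged replicates 3 to 5) and 4.90 to 7.87 FPKM in young libraries, with 2 of 3 tested genes higher, with and without aged replicates 1 and 2. Sertoli cell markers summed to 30.6 to 130 FPKM in aged libraries (30.6 to 39.6 FPKM in aged replicates 3 to 5) and 24.1 to 31.6 FPKM in young libraries, with 1 of 4 higher in both fits. That gene was Vim, although all 4 tested genes had a difference above 0, and 3 without aged replicates 1 and 2. In that smaller fit Wt1 went from 0.04 to -0.09 and Clu from 0.57 to 0.05 log2 units. Clu and Vim gave 75.9 and 39.4 FPKM of the sum in aged replicate 2. Wt1 averaged 1.95 ± 0.407 FPKM in aged and 1.87 ± 0.409 FPKM in young libraries, and Rhox5 0.217 FPKM in aged and 0.335 FPKM in young libraries. Macrophage markers summed to 12.7 to 70.6 FPKM in aged libraries and 9.85 to 18.7 FPKM in young libraries, and aged replicates 3 to 5, at 12.7 to 14.0 FPKM, lay within the young range. Of their 7 tested genes 4 stood higher, against 1 without aged replicates 1 and 2. The macrophage gene Adgre1 stood lower in both fits, at 5.80 ± 0.672 FPKM in aged and 7.16 ± 0.884 FPKM in young libraries (adjusted p = 0.359, limma). Endothelial markers summed to 3.65 to 6.91 FPKM in aged libraries (3.65 to 4.53 FPKM in aged replicates 3 to 5) and 2.89 to 4.16 FPKM in young libraries, with 1 of 2 higher in both fits. The filter limits these counts as well, since all 4 macrophage genes (C1qa, C1qb, Cd163 and Tyrobp), Vwf of the endothelial list, Cyp17a1 of the Leydig list and Cnn1 of the peritubular list averaged under 1 FPKM in young libraries.

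Spermatocyte markers, of the germ cells that precede round spermatids, summed to 82.6 to 123 FPKM in aged and 105 to 142 FPKM in young libraries. None of the 5 had a fitted difference above 0, and Sycp3, a protein of the synaptonemal complex, stood lower at an unadjusted p under 0.05, against 6.35% of all tested genes. It had 72.3 ± 9.59 FPKM in aged and 87.5 ± 10.2 FPKM in young libraries (adjusted p = 0.374, limma). Without aged replicates 1 and 2, 0 of the 5 stood lower at that p, against 3.8% of all tested genes, and 1 difference was above 0. The adjusted p of Sycp3 was then 0.694 (limma). Of the 7 round spermatid markers 0 reached that p in either direction. No gene of these lists was at 0 in all libraries, and no gene of them passed at an adjusted p under 0.05. The part of other cells' RNA in the values of Sparc, Lamb2, Bgn, Mgp and the other members was not tested.

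Genes that make, bind or cut the matrix gave a like picture, with 0 of 60 tested past an adjusted p of 0.05. Their counts are read against the same shares of all tested genes, 5.54% higher at an unadjusted p under 0.05 and 45.5% with a difference above 0, or 3.69% and 49.4% without aged replicates 1 and 2. Fkbp10 and Tgfb1, counted as higher, averaged under 1 FPKM in young libraries and passed the filter through their aged values. Counts of differences above 0 carry the same limit. Tested genes with a young mean under 1 FPKM numbered 2 for folding and processing, 0 for receptors and 2 for turnover. They numbered 2 for other matrix proteins and 3 for TGF-beta signalling. Of 17 tested genes of collagen folding and processing, 13 had a difference above 0 and 3 stood higher at an unadjusted p under 0.05, with a median of 0.135 log2 units. Without aged replicates 1 and 2 the count was 0 and the median 0.0736. Mia3, which helps load procollagen into carriers leaving the endoplasmic reticulum, averaged 22.6 ± 1.90 FPKM in aged and 24.7 ± 2.59 FPKM in young libraries. Pcolce, an enhancer of procollagen cleavage, averaged 20.0 ± 4.33 FPKM in aged and 17.6 ± 0.825 FPKM in young libraries. The lysyl hydroxylase Plod1 averaged 2.44 ± 0.464 FPKM in aged and 1.76 ± 0.228 FPKM in young libraries (adjusted p = 0.352, limma, adjusted p = 0.664 without aged replicates 1 and 2). Fkbp10, a collagen chaperone, averaged 1.48 ± 1.05 FPKM in aged and 0.604 ± 0.115 FPKM in young libraries (adjusted p = 0.396, adjusted p = 0.708 without aged replicates 1 and 2).

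Among matrix receptors 6 of 9 tested genes had a difference above 0 and 2 stood higher at an unadjusted p under 0.05, with and without aged replicates 1 and 2. Ddr1, a receptor kinase for collagen, averaged 19.9 ± 0.901 FPKM in aged and 20.0 ± 1.74 FPKM in young libraries, and Dag1, the laminin receptor dystroglycan, 9.45 ± 1.33 FPKM in aged and 9.52 ± 0.515 FPKM in young libraries. Both groups overlapped for both genes. Itgb1, the beta subunit of most collagen and laminin integrins, averaged 4.97 ± 3.28 FPKM in aged and 2.18 ± 0.491 FPKM in young libraries without overlap (adjusted p = 0.339, limma). Such a separation in the aged direction held for 1.36% of all tested genes, and Itgb1 was named for its small p. Bcam, a receptor for laminin alpha chains, averaged 5.05 ± 2.77 FPKM in aged and 2.40 ± 0.694 FPKM in young libraries (adjusted p = 0.324, limma). Without aged replicates 1 and 2 the adjusted p was 0.534 for Itgb1 and 0.553 for Bcam (limma).

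For matrix turnover, 7 of 9 tested genes had a difference above 0 and 1 stood higher at an unadjusted p under 0.05, while the proteases Mmp10, Mmp11 and Mmp12 were listed at 0 in all libraries. That 1 gene was Timp3, a metalloprotease inhibitor bound to matrix, at 6.66 ± 4.86 FPKM in aged and 2.21 ± 0.298 FPKM in young libraries without overlap (adjusted p = 0.319, limma, adjusted p = 0.302 without aged replicates 1 and 2). Its relative Timp2 averaged 23.4 ± 11.3 FPKM in aged and 15.5 ± 1.19 FPKM in young libraries (adjusted p = 0.443, limma). Among 13 tested genes of other matrix proteins, 10 had a difference above 0 and 1 stood higher at that p. It was Sparcl1, a relative of Sparc, with 12.6 ± 8.44 FPKM in aged and 5.34 ± 0.935 FPKM in young libraries without overlap (adjusted p = 0.319, adjusted p = 0.339 without aged replicates 1 and 2). Separation in the aged direction held for 1.36% of all tested genes. Timp3 and Sparcl1 had the smallest p of their lists, and genes without overlap were not counted over the lists.

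Other genes named from that list had smaller fitted differences. Mfap5, a microfibril protein, averaged 16.1 ± 1.62 FPKM in aged and 16.3 ± 1.08 FPKM in young libraries. Fmod, the collagen-binding proteoglycan fibromodulin, averaged 9.995 ± 0.772 FPKM in aged and 9.36 ± 0.400 FPKM in young libraries, and Vtn, the adhesive protein vitronectin, 1.96 ± 1.58 FPKM in aged and 0.804 ± 0.329 FPKM in young libraries (adjusted p = 0.438, limma).

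TGF-beta signalling, which drives collagen transcription in many tissues, had 8 of 12 tested genes with a difference above 0 and 5 higher at an unadjusted p under 0.05, and 1 without aged replicates 1 and 2. Cyr61, a secreted matricellular protein, averaged 3.99 ± 2.25 FPKM in aged and 1.41 ± 0.410 FPKM in young libraries (adjusted p = 0.319, limma, adjusted p = 0.479 without aged replicates 1 and 2). The ligand Tgfb1 averaged 1.56 ± 0.889 FPKM in aged and 0.796 ± 0.204 FPKM in young libraries (adjusted p = 0.396, limma). The coreceptor Tgfbr3 averaged 17.9 ± 2.21 FPKM in aged and 16.9 ± 1.40 FPKM in young libraries, and the signal mediator Smad4 averaged 3.95 ± 0.473 FPKM in aged and 4.21 ± 0.517 FPKM in young libraries. Neither reached an unadjusted p under 0.05.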

How the data were processed

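RNA of 10 round spermatid preparations (5 aged, 5 young) was sequenced from SMARTer mRNA libraries, per the labels' protocols. The authors deposited FPKM values for 32545 genes, 1 file per library, with gene lengths and coordinates. HISAT2 2.0.5 and featureCounts 1.5.0-p3 are the tools listed in the submitters' processing notes. Run settings, strandedness and the assembly were not given in the sources used here. Whole fragments were recovered from FPKM, gene length and the smallest step of a library, and 100% of values above 0 came out whole within 0.001. For a gene of 1 kilobase, 1 FPKM equals 14.6 to 18.6 fragments.

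Differences, aged minus young, were fitted on log2(FPKM + 1) by the lmFit and trended eBayes functions of limma 3.58.1 (R 4.3.3), two-sided, for the 12985 genes averaging 1 FPKM or more, and p-values were adjusted after Benjamini-Hochberg, with calls at an adjusted p under 0.05. The scale understates differences of low genes. The fit was tested on simulated data. The alternatives tried were 0.1 as pseudocount, a filter at 0.1 FPKM, at 5 FPKM or none, median-of-ratios and TPM scaling, limma's voom on the recovered fragments, a replicate block, and libraries left out. Single values are given for members with a mean of at least 5 FPKM, an unadjusted p under 0.05, or a place in the chain pairs Col1a1 and Col1a2, Col4a1 and Col4a2, or Col6a1 and Col6a2. Dcn and Col23a1 were added after their values were seen. From each pathway list the 2 genes with the highest mean and the 2 with the smallest unadjusted p are named. The members and lists were chosen with earlier results of these data known. Each gene list is counted over the rows of the files that carry its names. Promoter windows and gene synonyms came from RefSeq on GRCr8, with 1 start per gene.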

Additional observations from a re-analysis of the deposited data

Results flagged for a closer look

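A library stood apart from the other 4 of its group by Dixon's gap criterion (0.71 for 5 values) in 12 of the 58 groups of tested members examined. The share of such groups over all tested genes was not computed, and the groups share the same libraries, so no chance rate is set beside the count. In 9 of the 12 the library was aged replicate 2. Its FPKM was 70.7 for Mgp, 34.8 for Sparc, 9.70 for Dcn, 7.58 for Lamb2, 4.34 for Col4a2, 4.06 for Col4a5, 4.01 for Col18a1, 3.03 for Lamc1 and 2.45 for Lama4. Aged replicate 5 stood apart for Col26a1 at 12.8 FPKM, and aged replicate 1 for Lama1 at 1.88 FPKM. Young replicate 3 stood apart for the first Col23a1 row at 17.4 FPKM.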

How the results depend on the processing

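No tested member passed an adjusted p of 0.05 under any of the 19 alternatives. Over all genes the count stayed at 0, except for 1 gene, not a member, without young replicate 1 and likewise without young replicate 2 (range 0 to 1 over the 10 libraries left out singly). Members higher at an unadjusted p under 0.05 numbered 6, against 2 of 11 tested with a filter at 5 FPKM, 10 with voom, and 5 to 11 when libraries were left out singly, the 11 without aged replicate 5. The share of all tested genes was 5.54%, against 4.51%, 7.24%, 4.2% to 6.92% and, without aged replicate 5, 4.8%. The members' median difference was 0.25, against 0.10 with a filter at 0.1 or at 5 FPKM, 0.09 over all 63 with no filter, 0.40 with voom, 0.06 without aged replicates 1 and 2 together and 0.14 to 0.35 over the libraries left out singly.

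Of 29 fitted differences, 23 kept their sign under every alternative in which they were tested. Col4a3bp turned to 0.01 with TPM and 0.02 with voom, and ranged from -0.05 to 0.02 over single libraries left out. Without aged replicates 1 and 2 together, Col6a1 came to 0.00, the first Col23a1 row to -0.75, Col1a1 to -0.02, Lamc1 to -0.01 and Lama2 to -0.02. Over single libraries left out, Col6a1 ranged from -0.02 to 0.03 and the first Col23a1 row from -0.06 to 1.17. The cause was not tested.

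Deviations of same-numbered libraries from their group means correlated at -0.158 to 0.0541 over all tested genes. These values show no pairing by replicate number, though a shared preparation or run was not tested. With the replicate block, 0 genes were called and 5 members stood higher at an unadjusted p under 0.05, against 4.77% of all tested genes.

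Depth limits the members with few fragments, such as the first Col23a1 row with 5 to 304 and Dcn with 11 to 296 fragments per library.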
